A study of Rattus norvegicus with 17 samples.

Results

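The genes described here are the chains of the fibrillar collagens I and III and the enzyme lysyl oxidase, in lung parenchyma of Wistar rats (strain RjHan:WI). They were chosen by identifier, but with earlier results of these data known, so the choice may not be independent of their values. They are 4 of the 32753 rows of the deposited count table, listed as Col1a1 (ENSRNOG00000003897), Col1a2 (ENSRNOG00000011292), Col3a1 (ENSRNOG00000003357) and Lox (ENSRNOG00000014426). The deposited table and the reference used here do not pair these identifiers with gene names, so the names are those of the selection list and were not checked against an annotation. Only 3 of the 4 rows held enough reads to be tested.

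RNA was sequenced from lung samples in 17 libraries and 3 groups: 6 control libraries from rats given NaCl, 5 libraries from rats dosed with 1 mg per kg of bleomycin, and 6 libraries, called treated below, from rats that had this dose of bleomycin and also 2.5 mg per kg of BI1015550. All groups share the strain and the tissue, and every treated library came from a rat that also had bleomycin. The labels do not state the degree of injury in any lung. Bleomycin breaks DNA and is given to rodents as a standard way to scar the lung. According to the title of the series, BI1015550 blocks PDE4B, an enzyme that breaks down the second messenger cyclic AMP, and the model is a therapeutic one. The labels state no age, sex, route or time after dosing, and no library received the compound without bleomycin. Nothing in the labels says that each library came from its own animal, and p-values refer to the spread between libraries only, which may be technical. Libraries are named by the number in their title. Total counts per library ran from 15919392 to 18462105 in controls, from 15207791 to 16192209 with bleomycin and from 14609389 to 15889091 in treated lungs.

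Fibrillar collagens are rope-like proteins wound from chains with a repeating glycine motif, and they carry the tensile load of the lung interstitium. Type I collagen is built from a pair of α1 chains, encoded by Col1a1, and a single α2 chain, encoded by Col1a2, while type III collagen is built from Col3a1 chains alone and often shares fibrils with type I. Fibroblasts and myofibroblasts secrete them. Lysyl oxidase, encoded by Lox, oxidises lysines of collagen and elastin outside the cell so that neighbouring molecules become covalently crosslinked, which stiffens the fibril. In lung fibrosis these collagens accumulate in the scar.

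The row listed as Col1a2 could not be read as expression of a collagen chain. It held 5 counts in all 17 libraries together: 1 in the controls, 1 with bleomycin and 3 in treated lungs. Counts were above 0 in 4 libraries, and the highest was 2. The α2 chain is an obligate part of ordinary type I collagen, and the Col1a1 row held at least 13543 counts in every library, so the data go against the name of this row or its use as a measure of that chain. Whether reads of the gene were counted elsewhere was not tested. The row failed the expression filter and no level, fold change or ratio is read from it. Its ratios still entered the adjustment over 18 tests of ratios, and its 5 counts entered the share of all counts.

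Col1a1, the α1 chain of type I collagen, was the member with the strongest rise under bleomycin and was lower again in treated lungs. Levels are given as CPM, counts scaled to a fixed total per library, on library sizes scaled by the trimmed mean of M values. In controls the lowest library had 807 CPM, the median was 1041 and the highest was 1415. With bleomycin, library 7 had 3508 CPM, library 8 had 4311, library 9 had 6004, library 11 had 4473 and library 12 had 5102. The lowest bleomycin library was therefore above the highest control.

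In treated lungs Col1a1 ran from 1084 to 3116 CPM with a median of 2439, and all 6 libraries lay below the lowest bleomycin library. Treated libraries 13 and 17, at 1142 and 1084 CPM, lay within the range of the controls, while library 14 at 2663, library 15 at 3116, library 16 at 2216 and library 18 at 2796 lay above every control. Controls averaged 1044 ± 233 CPM (SD, n = 6), bleomycin lungs 4679.6 ± 933 (SD, n = 5) and treated lungs 2169 ± 868 (SD, n = 6). Relative to its mean the spread was 22.3% in controls, 19.9% with bleomycin and 40.0% in treated lungs.

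Col3a1, which encodes the chain of type III collagen, followed the same order of groups, with smaller fold differences. Controls ran from 2419 to 3825 CPM with a median of 3038. With bleomycin, library 7 had 6409 CPM, library 8 had 7488, library 9 had 10751, library 11 had 8232 and library 12 had 8678. No bleomycin library fell within the control range.

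Treated lungs had 2721 to 7023 CPM of Col3a1 with a median of 5445. Libraries 13 and 17, at 2910 and 2721 CPM, again lay among the controls, and the other four treated libraries lay above every control. Treated library 15, at 7023 CPM, exceeded bleomycin library 7, so that these groups overlapped by that library and 5 of 6 treated libraries lay below all bleomycin libraries. Controls averaged 3108 ± 549 CPM (SD, n = 6), bleomycin lungs 8311 ± 1612 (SD, n = 5) and treated lungs 4911 ± 1732 (SD, n = 6).

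Lox, the crosslinking enzyme, showed another arrangement of the groups: it was higher than control both with bleomycin and in treated lungs, and those last groups lay at similar means. Controls ran from 177 to 291 CPM with a median of 248. With bleomycin, library 7 had 586 CPM, library 8 had 476, library 9 had 444, library 11 had 309 and library 12 had 399. In treated lungs the lowest library had 305 CPM, the median was 378 and the highest was 755.

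The 5 bleomycin and 6 treated libraries all lay above the highest control for Lox, and the treated and bleomycin ranges overlapped. The highest value of all came from treated library 13, which was among the lowest treated libraries for both collagens. Without it, treated libraries lay between 305 and 401 CPM. Controls averaged 239.8 ± 41.9 CPM (SD, n = 6), bleomycin lungs 443 ± 102 (SD, n = 5) and treated lungs 429 ± 163 (SD, n = 6).

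**Figure D1:**
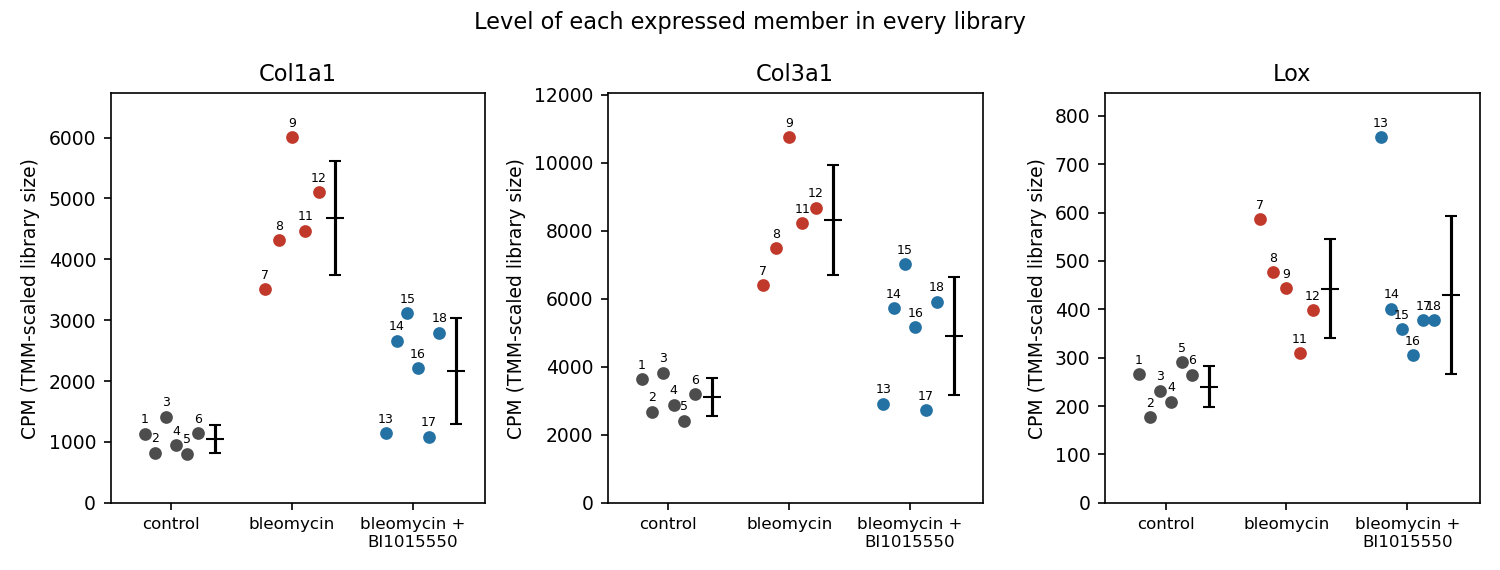
Level of Col1a1, Col3a1 and Lox in every library, in CPM on TMM-scaled library sizes, with a point per library labelled by its number and the group mean with SD beside it in black (n = 6, 5 and 6). Treated libraries 13 and 17 sit within the control range for both collagens, and treated library 13 is the highest for Lox at 755 CPM.

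The first comparison asks what bleomycin did to these genes. All 3 measured members rose, in a comparison in which 38.3% of the 15000 genes tested were called changed and 20.2% were called higher. Col1a1 rose 4.48-fold (2.16 ± 0.26 on the log2 scale, SE, edgeR quasi-likelihood adjusted p = 1.22e-05), a rise exceeded by 1.04% of all tested genes. Col3a1 rose 2.67-fold (1.42 ± 0.22 on the log2 scale, SE, edgeR adjusted p = 0.00013), and Lox rose 1.85-fold (0.89 ± 0.21 on the log2 scale, SE, edgeR adjusted p = 0.00293). A gene was called at an adjusted p below 0.05, with the Benjamini-Hochberg adjustment made over all 15000 genes.

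For all 3 members every bleomycin library was above every control, which was the case, in that direction, for 9.6% of the tested genes. The median log2 fold change of the 3 members was 1.42, against -0.0072 over all tested genes. In bulk tissue, more cells of the kind that makes collagen and more RNA per cell cannot be told apart. The proportion of fibroblasts in each library was not measured, since marker genes could not be matched to identifiers.

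The second comparison sets lungs that had the compound on top of bleomycin against those that had bleomycin alone. Transcripts of both collagen chains were less abundant in treated lungs, while the difference of Lox was not past the threshold. Here 27.8% of tested genes were called and 15.7% were called lower. Col1a1 was 2.16-fold lower (-1.11 ± 0.25 on the log2 scale, SE, edgeR adjusted p = 0.00495), with all 6 treated libraries below all 5 bleomycin libraries, as 8.58% of tested genes were. Col3a1 was 1.69-fold lower (-0.76 ± 0.22 on the log2 scale, SE, edgeR adjusted p = 0.0178).

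The log2 difference of Lox between treated and bleomycin lungs was -0.045 (SE 0.21, edgeR adjusted p = 0.891). Its 95% interval ran from -0.48 to 0.39. The sign of this estimate was not stable: it was 0.0055 with no scaling beyond library size and 0.076 without bleomycin library 7, neither past the threshold. Without treated library 13 it was -0.28 (adjusted p = 0.195).

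The call for Col3a1 against bleomycin depended on few libraries. Without treated libraries 13 and 17 together, the libraries lowest in both collagens, its log2 fold change was -0.48 (edgeR adjusted p = 0.0651). Without bleomycin library 9, the highest for Col3a1, it was -0.65 (edgeR adjusted p = 0.0504), close to the threshold of 0.05. Both exclusions could only shrink the difference, since they removed the lowest treated libraries or the highest bleomycin library. Col3a1 kept its call in 10 of 11 fits with 1 library left out. Without libraries 13 and 17 Col1a1 was lower by a log2 fold change of -0.79 (edgeR adjusted p = 0.0147) and kept its call.

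The third comparison sets treated lungs against controls. Col1a1 and Lox were higher than in controls, in a comparison in which 8.39% of tested genes were called and 3.92% were called higher. Col1a1 was 2.08-fold higher (1.05 ± 0.24 on the log2 scale, SE, edgeR adjusted p = 0.0125). Lox was 1.79-fold higher (0.84 ± 0.20 on the log2 scale, SE, edgeR adjusted p = 0.0146), or 0.60 on the log2 scale without treated library 13 (adjusted p = 0.0207).

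Col3a1 did not pass the test against control. Its log2 fold change was 0.66 (SE 0.21, edgeR adjusted p = 0.0613). The 95% interval ran from 0.21 to 1.11. It passed with DESeq2 (adjusted p = 0.0194), with limma voom (0.0257), without treated library 13 (0.0282) and without treated library 17 (0.024). With both of these libraries left out it also passed (log2 fold change 0.94, edgeR adjusted p = 0.00334). Libraries 13 and 17 were the lowest treated libraries for Col3a1, so leaving out either or both enlarges the difference. Col3a1 did not pass in 10 of 12 edgeR fits with 1 library left out (adjusted p up to 0.151). It also did not pass in 5 of 8 other settings (adjusted p up to 0.0802, edgeR). Treated lungs lay wholly above controls for Lox, as 2.35% of tested genes did, and 4 of 6 treated libraries did so for each collagen.

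**Figure D2:**
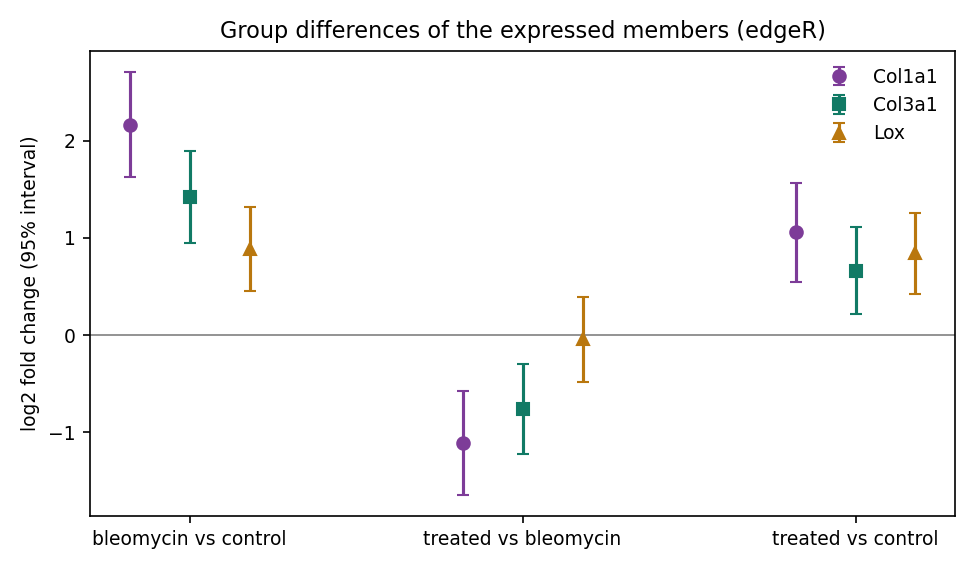
Log2 fold change of Col1a1, Col3a1 and Lox in each pair of groups, from the edgeR fit to all 17 libraries, with bars for the 95% interval and a line at no difference. In treated against bleomycin lungs the interval of Lox, from -0.48 to 0.39, spans 0, while those of both collagens lie below it.

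Set beside the bleomycin change, the difference from control in treated lungs was 48.7% of the log2 change for Col1a1, 46.5% for Col3a1 and 94.9% for Lox. On the CPM scale the shares were 30.9%, 34.6% and 93.3%, so the order of the collagens depends on the scale. These shares are descriptions without a test, since the same controls enter both differences. Those of Lox include treated library 13, the highest for Lox. Without that library the log2 fold change of Lox was 0.60 for treated against control and -0.28 for treated against bleomycin. The bleomycin change of Lox was 0.89.

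Of all counts, the 4 rows together took 0.444% ± 0.0741 in control libraries (SD, n = 6), 1.31% ± 0.258 in bleomycin libraries (SD, n = 5) and 0.759% ± 0.26 in treated libraries (SD, n = 6). Bleomycin raised this share by 0.866 percentage points over control (two-sided exact permutation test, p = 0.00216, adjusted p = 0.00649 over 3 tests). Treated lungs differed from bleomycin by -0.55 points (exact permutation p = 0.00649, adjusted p = 0.00974) and from controls by 0.316 points (exact permutation p = 0.0281, adjusted p = 0.0281). Lox took between 0.0184% and 0.0749% of the counts of a library, so the share was mostly Col1a1 and Col3a1.

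The balance between the collagen chains was compared as the ratio of Col1a1 to Col3a1 counts within each library, a measure that the scaling between libraries cannot move. The ratio is not corrected for gene length, so it is read only between groups. In controls it ran from 0.306 to 0.37 with a median of 0.331. With bleomycin it was 0.547 in library 7, 0.576 in library 8, 0.558 in library 9, 0.543 in library 11 and 0.588 in library 12. In treated lungs it ran from 0.392 to 0.472 with a median of 0.436. No library of any group fell within the range of another, and treated lungs lay between the other groups.

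Col1a1 thus rose more than Col3a1 with bleomycin, by a log2 difference of 0.75 between the groups' mean ratios (two-sided exact permutation test, p = 0.00216, adjusted p = 0.00779 over 18 tests of ratios). In treated against bleomycin lungs the ratio was lower, by a log2 difference of -0.38, and against control it was higher by 0.37, each with an exact permutation p of 0.00216 and an adjusted p of 0.00779. This p is the smallest that these group sizes allow. Treated libraries 13 and 17, whose amounts of both collagens lay among the controls, had ratios of 0.392 and 0.398, above the highest control at 0.37. Without both libraries the log2 differences were -0.31 against bleomycin (exact permutation, adjusted p = 0.0179) and 0.44 against control (adjusted p = 0.0122), an alternative chosen after the data were seen.

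**Figure D3:**
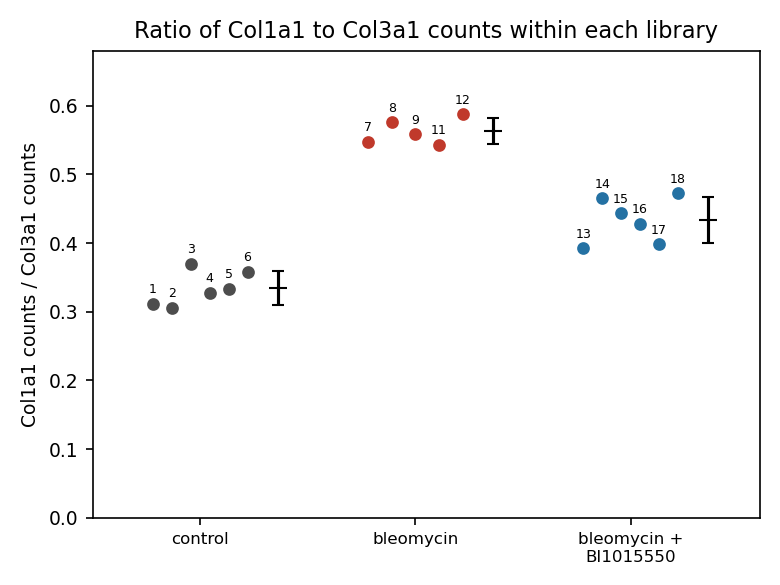
Ratio of Col1a1 to Col3a1 counts within each library, with a point per library labelled by its number and the group mean with SD in black. Controls lie between 0.306 and 0.37, treated lungs between 0.392 and 0.472 and bleomycin lungs between 0.543 and 0.588.

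Ratios to Lox varied more between libraries of a group. The count of Col1a1 over that of Lox averaged 4.44 ± 1.06 in control libraries (SD, n = 6), 11.2 ± 3.55 in bleomycin libraries (SD, n = 5) and 5.73 ± 2.85 in treated libraries (SD, n = 6). The ratio rose with bleomycin by 1.3 on the log2 scale (exact permutation p = 0.00433, adjusted p = 0.00974 over 18 tests), so that Col1a1 rose more than Lox. Treated against bleomycin lungs differed by -1.12 (exact permutation p = 0.0476, adjusted p = 0.0779), which did not pass the adjustment. It passed in 1 of 11 tests with 1 library left out, that without bleomycin library 7 (-1.33, adjusted p = 0.0429). It was -0.51 without treated libraries 13 and 17 (adjusted p = 0.134). An unequal response of Col1a1 and Lox to the compound was therefore not established, although Col1a1 passed its own test and Lox did not.

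For Col3a1 against Lox no comparison passed the adjustment. The log2 difference in their ratio was 0.54 for bleomycin against control (exact permutation p = 0.0714, adjusted p = 0.0989), -0.74 for treated against bleomycin (p = 0.147, adjusted p = 0.177) and -0.20 for treated against control (p = 0.667, adjusted p = 0.701). Without bleomycin library 7, the highest of its group for Lox and the lowest for Col3a1, the first of these was 0.74 (adjusted p = 0.019). Leaving out that library could only raise this ratio in the bleomycin group. In 10 of 11 tests with 1 library left out, bleomycin against control did not pass (exact permutation, adjusted p up to 0.208). The difference between treated and bleomycin lungs was -0.44 when treated library 13 was left out and -0.20 when library 17 was left out as well, so its size rested on these libraries.

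The collagen chains ordered the libraries alike outside the controls. Within the bleomycin group and within the treated group, Col1a1 and Col3a1 ranked the libraries in the same order, from library 9 down to library 7 and from library 15 down to library 17. In controls libraries 1 and 6 changed places, and the other four kept theirs. Lox did not follow that order: bleomycin library 7 was lowest for both collagens and highest for Lox, and treated library 13 was second lowest for both collagens and highest for Lox.

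Likeness to every other gene was described by the Pearson correlation of log2 CPM over the 17 libraries, which includes the differences between groups and carries no p. Among 11722 other genes with a mean of at least 5 CPM, 0 had a higher correlation with Col1a1 than Col3a1 did, at 0.99, and the same held for Col3a1 with Col1a1. The correlation of Lox was 0.49 with Col1a1, exceeded by 2567 of those genes (21.9%), and 0.41 with Col3a1, exceeded by 3115 (26.6%). These positive values rest on the differences between group means: taken as deviations from the mean of its own group, Lox had a correlation of -0.40 with Col1a1 and -0.43 with Col3a1 over the 17 libraries, and Col1a1 and Col3a1 kept one of 0.99. The rank (Spearman) correlations of the same deviations were weaker for Lox, at -0.26 and -0.30. Within controls the Pearson correlations of Lox were 0.21 and 0.10. They were -0.43 and -0.46 with bleomycin (n = 5), and -0.57 with each collagen in treated lungs (n = 6). The treated rank correlations were -0.43 with each collagen. Treated library 13, far above the rest of its group for Lox and low for both collagens, enters the treated values and the deviations over all libraries. How far the negative values rest on that library was not tested, so no inverse relation is read from them.

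The gene with the highest mean correlation with the 3 members was ENSRNOG00000055962, at 0.95 with Col1a1, 0.92 with Col3a1 and 0.67 with Lox. Its level averaged 1233 ± 98.8 CPM in control (SD, n = 6), 3512 ± 609 in bleomycin (SD, n = 5) and 2166 ± 424 in treated libraries (SD, n = 6). ENSRNOG00000008332 came next, at 0.96, 0.94 and 0.61, with 27.3 ± 1.79, 47.4 ± 4.01 and 36 ± 3.84 CPM in the same groups. No gene name is given to either, and they were picked for this pattern, so their levels are a description.

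**Figure D4:**
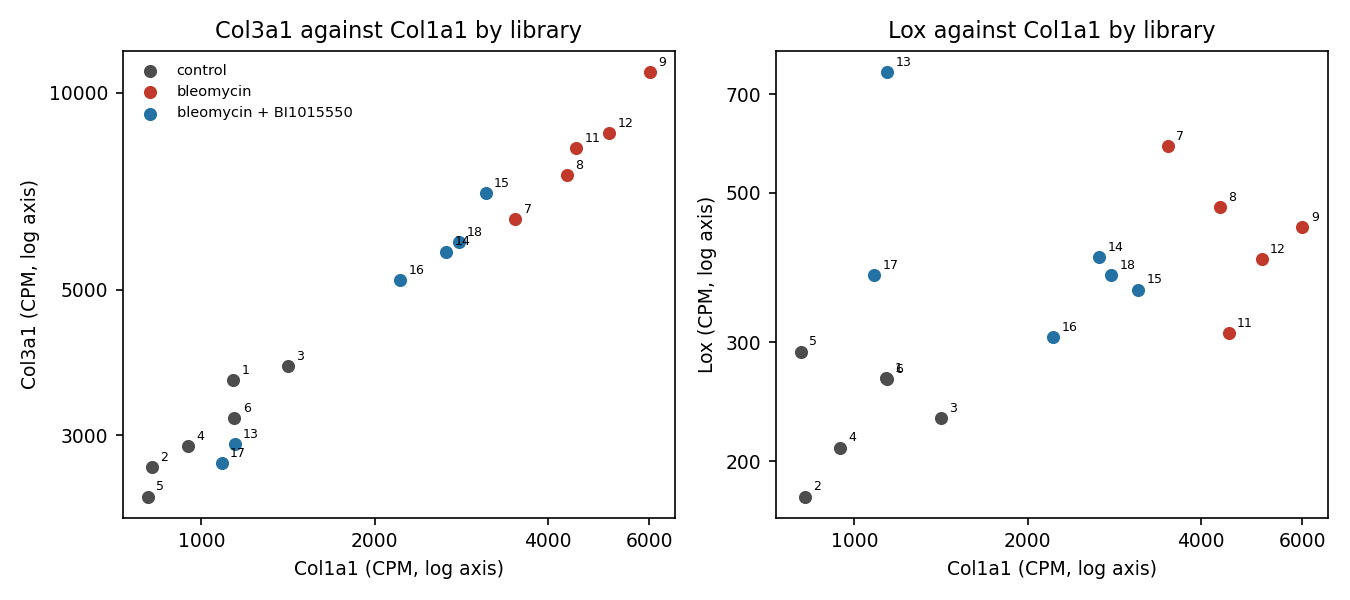
Col3a1 against Col1a1 and Lox against Col1a1 in CPM on log axes, with a point per library coloured by group and labelled by its number. Col3a1 rises with Col1a1 across all libraries (correlation 0.99 on log2 CPM), while Lox is widely scattered and treated library 13 combines 1142 CPM of Col1a1 with 755 CPM of Lox.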

How the data were processed

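The authors deposited 1 table of raw counts, whole-number reads per gene, for 17 libraries made from lung RNA (RNeasy kit, TruSeq mRNA libraries, per the labels' protocols). STAR 2.5.2 and 2.5.2b, featureCounts 1.5.1 and RSEM 1.3.0 are named, with the builds Rnor_6.0, hg38 and GRCh38, per the submitters' processing notes. Their roles, the annotation release and the strand setting are not stated there, so reads of overlapping or antisense genes could have been shared or dropped.

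The tests ran under R 4.3.3 and edgeR 4.0.16. Of 23083 genes with a count, 15000 passed filterByExpr. A quasi-likelihood model of the 3 groups was fitted to all 17 libraries after TMM scaling (common dispersion 0.0397). The model was also run on simulated data with known changes and the same dispersion for every gene. That run does not show how the model performs on genes of unequal spread. Each SE is the absolute log2 fold change over the root of its F. Ratios used log2 CPM with a prior count of 2, and differences in group means were tested by exact permutation (two-sided, smallest possible p 0.00216). The 18 ratio tests include 9 with the Col1a2 row, which are not read; adjustment over the other 9 changed no call. Alternatives used DESeq2 1.42.0, limma 3.58.1, other scalings, no filter, a prior count of 0.5, fits of only the groups compared, and left-out libraries. Members and lists were chosen with earlier results of these data known. The 4 members were always named, with the 2 other genes most correlated with them. The pathway and cell type lists were not run, since identifiers had no names. Each interval is for the difference between group means, and its width reflects the spread between libraries only.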

Additional observations from a re-analysis of the deposited data

Results flagged for a closer look

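Among 24 groups of library values examined (levels, ratios, share of counts and total counts), 1 held a library far from the rest. Lox reached 755 CPM in treated library 13, while the other treated libraries had 305 to 401 CPM, and the gap to the next library spanned 0.787 of the whole range. About 1 in 20 groups of normally distributed values would be marked in this way by chance. The same library had 1142 CPM of Col1a1, within the control range.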

How the results depend on the processing

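Of 336 alternative values over 21 results, 320 kept their direction and their side of the threshold, 2 lost the call, 8 gained it and 6 changed sign. Col1a1 kept its call in all 3 comparisons under every alternative run, as did the ratio of Col1a1 to Col3a1, the share of counts, and Lox in both comparisons with control. For Col3a1 in treated against bleomycin lungs, the log2 fold change was -0.48 without treated libraries 13 and 17 and ran from -0.89 to -0.64 with 1 library left out. For Col3a1 in treated against control lungs it was 0.66 with DESeq2, 0.67 with limma voom, 0.94 without treated libraries 13 and 17, and 0.53 to 0.78 with 1 library left out. The difference of Lox between treated and bleomycin lungs turned to 0.0055 with no scaling and ran from -0.28 to 0.076 with 1 library left out. The log2 ratio of Col1a1 to Lox ran from -1.33 to -0.79 for treated against bleomycin with 1 library left out and was -0.51 without treated libraries 13 and 17. Libraries 13 and 17 had the lowest Col1a1 to Lox ratios of the treated group, so leaving both out could only raise the group's mean. Their exclusion was chosen after the data were seen, so its adjusted p of 0.0122 (exact permutation, treated against control) is not read as a call. In that comparison the log2 ratio of Col1a1 to Lox was 0.79 without them and 0.17 with them. That of Col3a1 to Lox ran, with 1 library left out, from 0.42 to 0.74 for bleomycin against control, from -0.94 to -0.44 for treated against bleomycin and from -0.36 to 0.11 for treated against control. The last turned to 0.35 without treated libraries 13 and 17. The cause was not tested. No paired analysis was possible because no number in the library titles occurs in more than 1 group.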
